A study of Rattus norvegicus with 4 samples.

Results

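The genes described here are the cathepsins, serpins and cystatins of rat cartilage, that is, a family of mostly lysosomal proteases, a family of mostly protease-inhibiting proteins and the inhibitors of cysteine proteases. They were chosen by symbol alone: every gene of the count table named as a cathepsin with a single letter, a serpin of clades a to i or a numbered cystatin or Cstb, with Ctsk, Ctsg and Serpinh1 left out. The rule found 36 genes of the 13554 in the table, made up of 11 cathepsins, 20 serpins and 5 cystatins. RNA was sequenced from articular cartilage, which covers the bone ends in joints, and from xiphoid cartilage, the lower tip of the sternum, of Sprague-Dawley rats aged 8 to 10 weeks, with 2 libraries per tissue. The labels give no treatment or genotype, and they name neither the joint, the sex nor the animals behind a library. The p-values therefore set differences against the spread between these libraries, which may be technical.

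Most cathepsins are papain-like cysteine proteases made as inactive precursors, carried to lysosomes by mannose 6-phosphate receptors and sortilin, and activated there at low pH. Cathepsins D and E are aspartic proteases and cathepsin A is a serine carboxypeptidase. Cystatins bind reversibly in the active site cleft of cysteine cathepsins, whereas inhibitory serpins offer a reactive loop as bait and trap the attacking protease, usually a serine protease, in a covalent complex. In cartilage, chondrocytes and invading cells turn over collagen and proteoglycan with proteases, cathepsins among them, and the inhibitors limit this turnover. Secreted serpins also limit plasmin, thrombin and elastase in the matrix.

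The libraries held 8394779 and 7785234 estimated counts from articular cartilage and 8434821 and 7351005 from xiphoid cartilage. Chondrocyte markers, all 8 of 8 listed genes found, took 2.06% and 2.07% of articular counts, against 1.50% and 1.49% of xiphoid counts. Of the 8, 4 were called higher in articular cartilage, 2 (Comp and Cnmd) were called higher in xiphoid cartilage, and Matn3 and Sox9 did not pass. Cnmd had 6718 and 6564 counts in articular against 21595 and 19874 in xiphoid cartilage. Markers of other cells differed between the tissues. Osteoclast markers (5 of 7 found) took 0.138% and 0.149% in articular against 0.00172% and 0.00171% in xiphoid cartilage, where Calcr, Oscar and Atp6v0d2 had no count. Erythroid markers (5 of 6) took 0.405% and 0.364% against 0.0296% and 0.0277%, with none at 0. Skeletal muscle markers (7 of 7) took 0.00338% and 0.00245% in articular against 0.793% and 0.804% in xiphoid cartilage, with none at 0, and adipocyte markers (6 of 6) took 0.00806% and 0.00651% against 0.285% and 0.218%, with Lep at 0 in articular cartilage. Macrophage markers (8 of 9) were closer, at 0.0152% and 0.0151% against 0.0121% and 0.0110%, with none at 0. Osteoblast markers (5 of 5) took 0.632% and 0.665% in articular against 0.602% and 0.646% in xiphoid cartilage, most of it Col1a1, which did not pass. The other 4, Bglap, Sp7, Dmp1 and Phex, were called higher in articular cartilage, Bglap with 4241 and 3227 counts against 45 and 44, and Phex had no count in xiphoid cartilage. Mast cell markers (5 of 5, none at 0) took 0.00189% and 0.00284% in articular against 0.00659% and 0.00624% in xiphoid cartilage, with 3 of the 4 tested called higher in xiphoid cartilage. The part of these cells in the levels of the 36 genes was not tested. In tissue samples, fewer cells of a type and less RNA per cell cannot be told apart.

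Together the 36 genes took 1.54% and 1.26% of articular counts, against 1.30% and 1.28% of xiphoid counts. Cst3 alone accounted for 1.19% and 0.911% against 0.747% and 0.679%, and the other 35 genes for 0.346% and 0.348% against 0.551% and 0.598%. Levels are given as CPM, the counts scaled to a common library size after TMM scaling, and a level says how one gene compares between tissues, not between genes, because no transcript lengths were used. Of the 36 genes, 27 passed the low-count filter and were tested, and 9 did not. With the threshold for the Benjamini-Hochberg adjusted p at 0.05 over all 11202 tested genes (quasi-likelihood test of edgeR), 5 genes had the higher level in articular and 7 in xiphoid cartilage, while 15 did not pass. That is 44.4% of the 27, against 49.5% of all tested genes, with 18.5% higher in articular cartilage (25.0% of all tested genes) and 25.9% higher in xiphoid cartilage (24.5% of all tested genes). Their median log2 fold change, articular over xiphoid, was -0.07, and that of all tested genes was -0.02. The shares called were thus near those of the whole table, and the families are described by which of their genes differed.

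**Figure D1:**
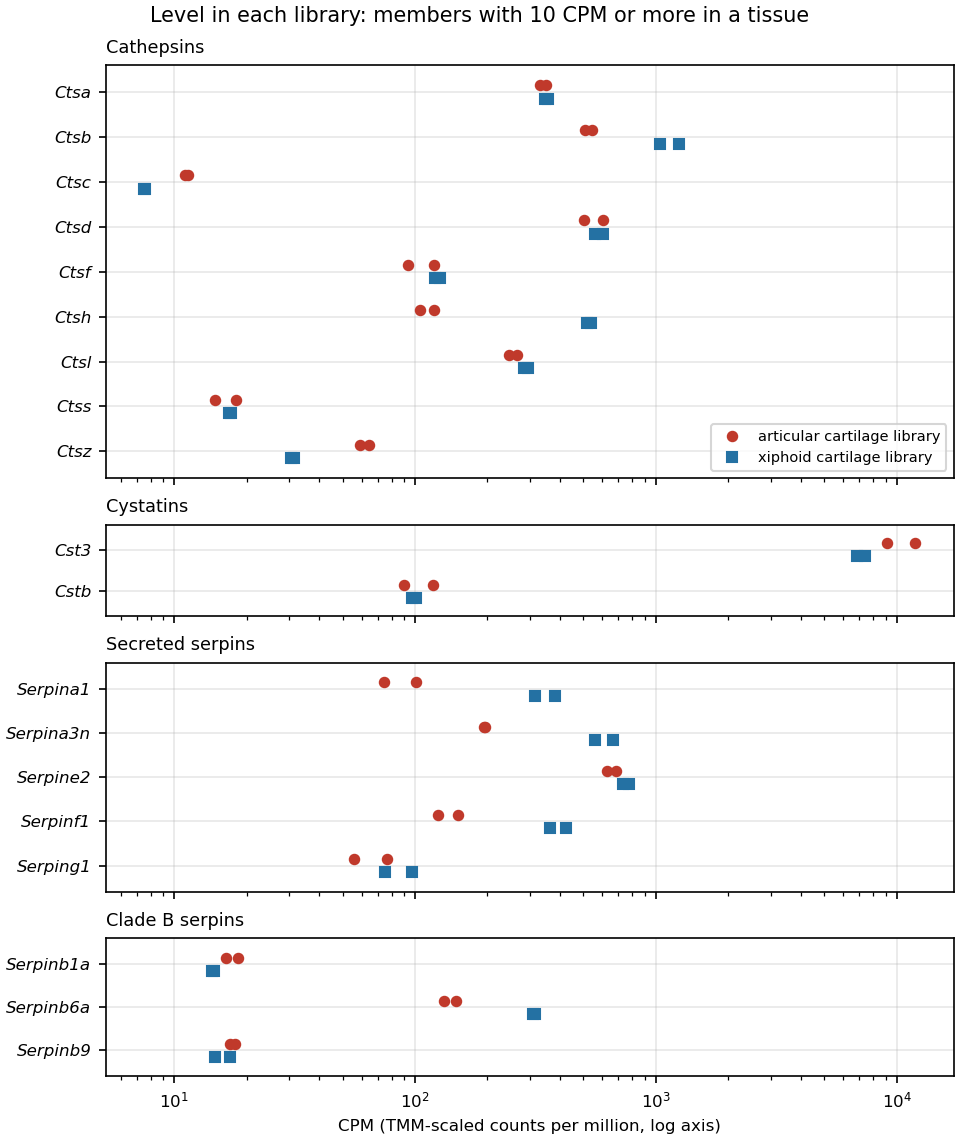
Level of 19 cathepsin, cystatin and serpin genes with a mean of 10 CPM or more in at least 1 tissue, in each library, on a log axis, with articular libraries as red circles and xiphoid libraries as blue squares. The tissues are far apart for Ctsb, Ctsh, Serpina1, Serpina3n, Serpinf1 and Serpinb6a, with xiphoid libraries to the right, and for Ctsz, with articular libraries to the right.

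Of the 11 cathepsins, Ctsz and Ctse (2) were higher in articular and Ctsb and Ctsh (2) in xiphoid cartilage, 6 did not pass and Ctsw was untested. Among the cathepsins at 10 CPM or more, the largest difference was that of Ctsh (Entrez gene 25425), a cysteine protease that removes amino acids from the amino end of proteins. Ctsh was at 119.5 and 105.1 CPM in articular libraries, against 537.9 and 516.5 CPM in xiphoid libraries. Both xiphoid libraries lay far above both articular ones, a 4.69-fold difference (log2 fold change -2.23, SE 0.15, adjusted p = 1.79e-07). Ctsb (Entrez gene 64529), which works both as an endopeptidase and as a carboxypeptidase, was at 508.8 and 541.0 CPM in articular cartilage, against 1040 and 1247 CPM in xiphoid cartilage. The tissues did not overlap, and Ctsb was 2.18-fold higher in xiphoid cartilage, at a log2 fold change of -1.12 (SE 0.16, adjusted p = 8.64e-05).

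Ctsz (Entrez gene 252929), a carboxypeptidase that is abundant in macrophages and other myeloid cells, went the other way. It was at 64.4 and 58.8 CPM in articular cartilage, against 31.5 and 30.6 CPM in xiphoid cartilage, with little spread within either tissue. The articular level was 1.98-fold that in xiphoid cartilage, at a log2 fold change of 0.99 (SE 0.16, adjusted p = 2.93e-04). Ctse (Entrez gene 25424), an aspartic protease of stomach, immune cells and red cells, was low throughout, at 7.30 and 6.29 CPM in articular against 0.823 and 0.959 CPM in xiphoid cartilage. The libraries did not overlap and the fitted difference was 7.55-fold (log2 fold change 2.92, SE 0.43, adjusted p = 1.40e-04). The erythroid and osteoclast markers given above were higher in the same articular libraries, while macrophage markers differed less. Of the 8 macrophage markers tested, 2 had the higher level in articular and 1 in xiphoid cartilage, while 5 did not pass. Neutrophil markers (7 of 8 found) took 0.0181% and 0.0184% against 0.00889% and 0.0110%, with Elane and Camp at 0 in xiphoid cartilage. Most of the xiphoid share was Lcn2, with 127 and 131 counts in articular against 660 and 712 in xiphoid cartilage, whereas S100a8 had 539 and 510 against 4 and 1 counts and S100a9 had 567 and 511 against 5 and 0 counts. Of the 6 neutrophil markers tested, 4 were called higher in articular cartilage and Lcn2 in xiphoid cartilage. The part of these cells in the values of Ctsz and Ctse was not tested.

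The other well-measured cathepsins showed smaller differences, none of which passed. Ctsd, the main lysosomal aspartic endopeptidase, was at 604.6 and 505.4 CPM in articular cartilage, against 558.9 and 602.6 CPM in xiphoid cartilage (log2 fold change -0.07, 95% interval -0.40 to 0.27, adjusted p = 0.752). Ctsa, which also protects lysosomal beta-galactosidase and neuraminidase, was at 350.4 and 331.9 against 345.6 and 355.5 CPM (log2 fold change -0.04, 95% interval -0.34 to 0.27, adjusted p = 0.839). For both genes the libraries of the tissues were interleaved. Ctsl, a broad endopeptidase, was at 245.8 and 265.0 CPM in articular cartilage, against 282.9 and 295.9 CPM in xiphoid cartilage (95% interval of the log2 fold change -0.49 to 0.13, adjusted p = 0.31). Ctsf, a further lysosomal cysteine protease, was at 120.2 and 93.2 against 120.5 and 126.7 CPM (95% interval -0.56 to 0.14, adjusted p = 0.302). The xiphoid libraries were the higher ones for Ctsl and Ctsf, by less than the fit could separate. For Ctsf the log2 fold change was -0.41 without articular replicate 1 and -0.04 without articular replicate 2. Ctss, the cathepsin of antigen-presenting cells, was at 14.8 and 18.1 CPM in articular cartilage, against 17.2 and 16.9 CPM in xiphoid cartilage (adjusted p = 0.872), and its libraries overlapped. Ctsc, dipeptidyl peptidase I, which activates the serine proteases of leukocyte granules, was at 11.4 and 11.05 CPM against 7.53 and 7.53 CPM. Its articular libraries were both the higher ones, and the difference did not pass (log2 fold change 0.57, SE 0.25, adjusted p = 0.0782). Ctsw, a cathepsin of cytotoxic lymphocytes, had 10 and 5 counts in articular cartilage, against 1 and 0 counts in xiphoid cartilage. The ratio of its counts after scaling was 14.7 with an exact 95% counting interval of 2.26 to 618, and it was not tested across libraries. Lymphocyte and NK markers (9 of 10 found) took 0.00216% and 0.00207% of counts in articular against 3.56e-05% and 0% in xiphoid cartilage, where 7 of the 9 had no count.

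Of the cathepsins that the rule leaves out, Ctsk, the collagen-degrading cathepsin of osteoclasts, was at 536.9 and 522.9 CPM in articular against 133.8 and 124.7 CPM in xiphoid cartilage, in the same direction as the osteoclast markers, and Ctsg, a granule serine protease of neutrophils, had 62 and 56 counts against none. Serpinh1, the collagen chaperone of the endoplasmic reticulum, was at 1045 and 652.1 against 1225 and 892.8 CPM and did not pass (adjusted p = 0.271).

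Of the 36 genes, 4 overlap another gene of the table in the RefSeq annotation of assembly GRCr8, and the sources used here do not give the strand setting of the counting, so their reads cannot be told apart with certainty. Ctsd overlaps Tnni2, a troponin of fast muscle, which averaged 239.5 CPM in articular cartilage, against 243.1 CPM in xiphoid cartilage. Ctsz overlaps Nelfcd, at 41.8 against 44.2 CPM and with no difference that passed (adjusted p = 0.698), whereas Ctsz itself differed. Ctsa overlaps Neurl2 and Pltp, neither of which passed.

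Upstream sequence of the cathepsins is shown to set the genes that differed beside one that did not. RefSeq promoters of assembly GRCr8 were found for 29 of the 36 genes, of which 10 had differed, and the 250 bases before the first base of the transcript were read, 5′ to 3′ on the gene's strand. Capitals mark matches on either strand to CACGTG, the E-box at the heart of the CLEAR element of lysosomal genes, to the GC box GGGCGG, to the TATA box TATAAA, to TTCNNNGAA, a STAT motif, and to TGANTCA, an AP-1 motif, none of which overlapped another in the sequences printed. The windows were chr8:99488506-99488755 on the plus strand for Ctsh, chr3:183653848-183654097 on the minus strand for Ctsz and chr1:206968822-206969071 on the minus strand for Ctsd.
Ctsh: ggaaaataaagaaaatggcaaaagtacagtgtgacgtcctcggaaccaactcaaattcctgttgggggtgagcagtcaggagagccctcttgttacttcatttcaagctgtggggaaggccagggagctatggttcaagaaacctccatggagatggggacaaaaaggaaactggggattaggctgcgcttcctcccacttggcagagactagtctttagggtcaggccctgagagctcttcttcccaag
Ctsz: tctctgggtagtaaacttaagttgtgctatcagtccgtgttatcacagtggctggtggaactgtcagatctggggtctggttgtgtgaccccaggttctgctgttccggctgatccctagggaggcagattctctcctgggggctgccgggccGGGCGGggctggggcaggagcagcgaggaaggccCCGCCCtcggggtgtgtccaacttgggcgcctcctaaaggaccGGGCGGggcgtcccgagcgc
Ctsd: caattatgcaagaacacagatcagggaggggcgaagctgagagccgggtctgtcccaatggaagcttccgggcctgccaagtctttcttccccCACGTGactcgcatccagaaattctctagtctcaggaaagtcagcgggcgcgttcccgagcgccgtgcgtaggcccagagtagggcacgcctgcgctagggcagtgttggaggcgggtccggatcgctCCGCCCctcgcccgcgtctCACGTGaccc

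In these windows, Ctsd held 2 E-boxes and 1 GC box, Ctsz held 3 GC boxes and no E-box, and Ctsh held none of the 5 motifs. Of the 29 genes with a window, Serpinb6a having 2, 3 held CACGTG (Ctsd, Ctsf and Cstb), which is 10.3%, against 5.59% of all 33469 promoters in the table. None of these 3 genes had passed the test between tissues. GC boxes were found for 14 of the 29 (48.3%, against 30.5% of all promoters), among them 3 genes higher in articular and 3 genes higher in xiphoid cartilage. The ratio of observed to expected CpG pairs, which is high in CpG islands, had a median of 0.548 over the 9 cathepsins with a window, against 0.383 over all promoters. Ctsh, at 0.193, was the lowest of the 9, and Ctsd, at 0.881, was the highest. Shares and medians of the genes described count each gene once, Serpinb6a by its first window, whereas those of all promoters count every promoter entry. These matches describe letters in the window and not binding.

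Among the 5 cystatins, Cst3 was higher in articular cartilage, Cstb and Cst7 did not pass, and Cst6 and Cst8 were untested. Cst3 (Entrez gene 25307) encodes cystatin C, the secreted inhibitor of cysteine cathepsins found in most body fluids. It was at 11951 and 9105 CPM in articular libraries, against 7410 and 6840 CPM in xiphoid libraries. Both articular libraries lay above both xiphoid ones, but the gap between the tissues was smaller than that between the articular libraries. The articular level of Cst3 was 1.48-fold that in xiphoid cartilage, at a log2 fold change of 0.56 (SE 0.17, adjusted p = 0.0168). The call was lost without articular replicate 1 (log2 fold change 0.35, adjusted p = 0.148), without xiphoid replicate 1 (0.63, adjusted p = 0.0661) and without xiphoid replicate 2 (0.52, adjusted p = 0.143), while the sign was kept. Cstb, the cytosolic stefin B, was at 118.6 and 90.3 CPM in articular against 100.7 and 97.3 CPM in xiphoid cartilage (log2 fold change 0.08, 95% interval -0.28 to 0.44, adjusted p = 0.728), with overlapping libraries. Cst7, cystatin F of immune cell lysosomes, was at 4.67 and 3.47 against 2.47 and 3.56 CPM (adjusted p = 0.389). Cst6, a secreted inhibitor known from skin, had 13 and 1 counts in articular and 3 and 2 counts in xiphoid cartilage, and Cst8, a cystatin of the reproductive tract, had 1 count in all.

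**Figure D2:**
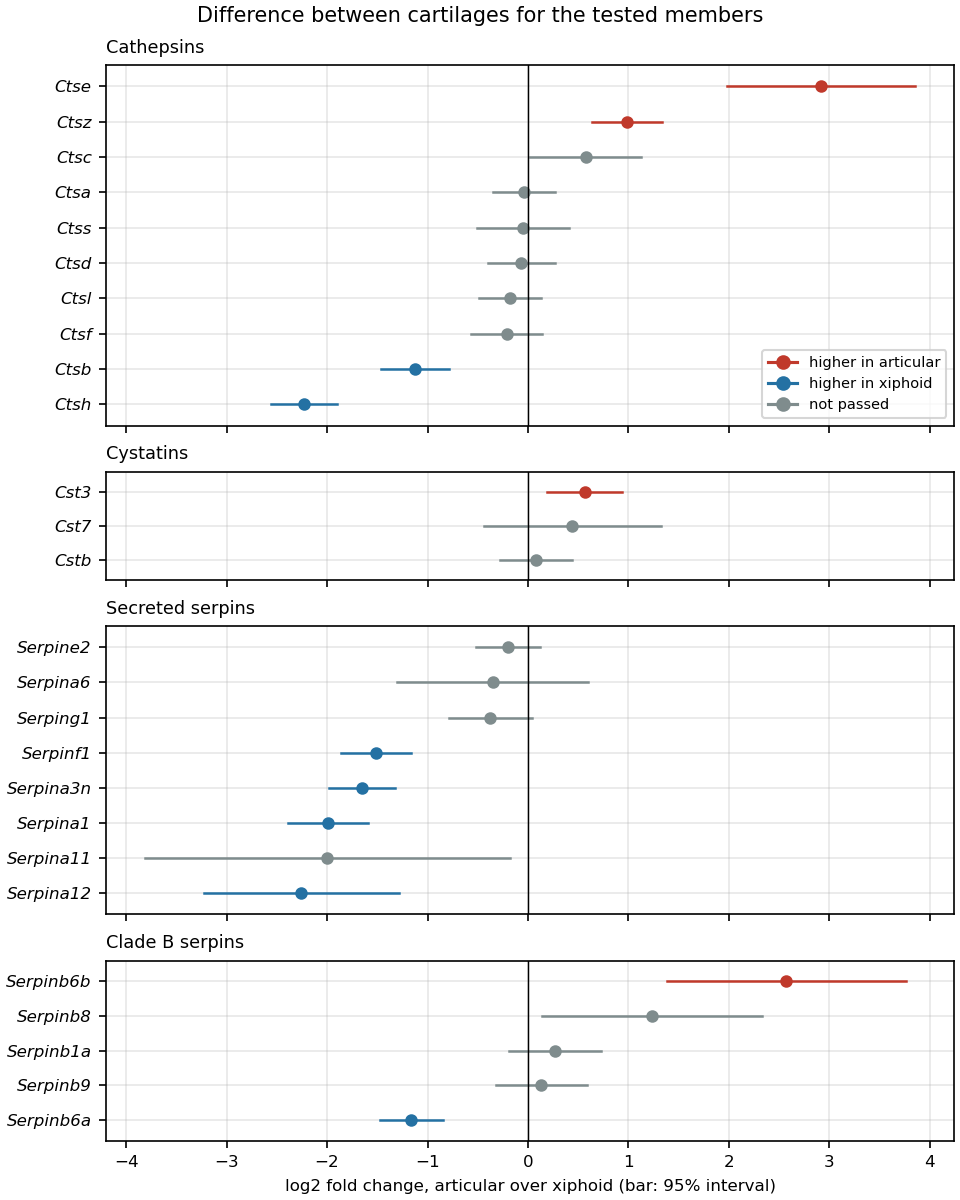
Log2 fold change, articular over xiphoid, of 26 tested genes with its 95% interval from the fit, by family, with genes higher in articular cartilage in red, genes higher in xiphoid cartilage in blue and genes that did not pass in grey. The xiphoid side holds 4 called secreted serpins, and the cathepsins hold 2 genes on each side.

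The serpins were counted as 12 of the secreted clades and 8 of clade B, whose members act mostly inside cells. Of the 12 secreted serpins 9 were tested: Serpina1, Serpina3n, Serpinf1 and Serpina12 were the 4 with the higher level in xiphoid cartilage, while 4 missed the threshold. The genes higher in xiphoid cartilage made up 44.4% of the 9, a small group, against 24.5% of all tested genes. The median log2 fold change of the 9 was -1.51, against -0.02 over all tested genes. Serpina1 (Entrez gene 24648) encodes alpha-1-antitrypsin, the main inhibitor of neutrophil elastase. It was at 74.2 and 101.1 CPM in articular cartilage, against 314.8 and 381.5 CPM in xiphoid cartilage, so that the lowest xiphoid library lay well above the highest articular one. The difference was 3.97-fold (log2 fold change -1.99, SE 0.18, adjusted p = 2.49e-06). Serpina3n (Entrez gene 24795), a rodent relative of alpha-1-antichymotrypsin, was at 195.9 and 193.2 CPM in articular cartilage, against 561.4 and 662.1 CPM in xiphoid cartilage. It was 3.14-fold higher in xiphoid cartilage, at a log2 fold change of -1.65 (SE 0.15, adjusted p = 2.78e-06), with no overlap. Serpina3n has close relatives beside it in the genome, so that reads can be split between copies and its value is uncertain.

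Serpinf1 (Entrez gene 287526) encodes pigment epithelium-derived factor, a serpin with no known inhibitory action that restrains the growth of vessels. It was at 124.4 and 151.3 CPM in articular cartilage, against 362.7 and 422.1 CPM in xiphoid cartilage, again without overlap. The difference was 2.85-fold toward xiphoid cartilage, at a log2 fold change of -1.51 (SE 0.16, adjusted p = 9.19e-06). Its neighbour in the genome, Serpinf2, which encodes the plasmin inhibitor alpha-2-antiplasmin, had 4 and 1 counts in articular and 3 and 0 counts in xiphoid cartilage. Serpina12 (Entrez gene 191570) encodes vaspin, a serpin of fat tissue, and was at 2.15 and 0.771 CPM against 7.53 and 6.71 CPM. It was 4.78-fold higher in xiphoid cartilage, at a log2 fold change of -2.26 (SE 0.45, adjusted p = 0.0012), with a log2 fold change of -3.18 without articular replicate 1 and of -1.72 without articular replicate 2. The same xiphoid libraries also had the higher shares of adipocyte and muscle markers given above. Fibroblast markers (6 of 7 found, none at 0) took 0.0816% and 0.0909% of articular counts, against 0.0863% and 0.0832% of xiphoid counts, with a median log2 fold change of -1.88. Most of these counts came from Dcn, called higher in articular cartilage (6015 and 6264 counts against 3756 and 3565), while Dpt, Mfap5, Pi16 and Cd34 (4 of the 6) were called higher in xiphoid cartilage, Dpt with 126 and 61 counts against 2253 and 1430. The part of these cells in the levels of Serpina12 and the other serpins was not tested. Of 5 listed liver genes 2 were found, and Alb had 2 and 0 counts in articular against 25 and 24 counts in xiphoid cartilage.

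Serpine2, protease nexin 1, an inhibitor of thrombin and of plasminogen activators, was at 627.1 and 682.7 CPM in articular cartilage, against 730.2 and 776.2 CPM in xiphoid cartilage. Its xiphoid libraries were both the higher ones, and the difference did not pass (log2 fold change -0.20, 95% interval -0.52 to 0.12, adjusted p = 0.272). Serping1, the inhibitor of the complement proteases C1r and C1s, was at 55.7 and 76.8 CPM against 75.02 and 97.0 CPM. Its libraries overlapped and it did not pass (log2 fold change -0.38, SE 0.19, adjusted p = 0.122). The log2 fold change of Serping1 was -0.62 without articular replicate 2 and -0.16 without articular replicate 1. Serpina6, which carries corticosteroids in blood, was at 2.27 and 2.31 CPM against 2.47 and 3.42 CPM (adjusted p = 0.533). Serpina11 was at 0.957 and 0 CPM against 2.35 and 1.64 CPM (adjusted p = 0.0647), and it passed with limma-voom (log2 fold change -3.01, adjusted p = 0.0256). Without articular replicate 1 the remaining articular library had no count, so no fold change is given for that case. Serpini1, neuroserpin, had 5 and 6 counts in articular and 10 and 27 counts in xiphoid cartilage, and Serpina16 had 2 counts in articular and 1 count in xiphoid cartilage over both libraries.

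The upstream windows of the 3 secreted serpins with the lowest adjusted p are shown because these genes differed in the same direction. They lie at chr6:128653126-128653375 on the minus strand for Serpina1, chr6:129088142-129088391 on the plus strand for Serpina3n and chr10:60760899-60761148 on the minus strand for Serpinf1, with capitals as above.
Serpina1: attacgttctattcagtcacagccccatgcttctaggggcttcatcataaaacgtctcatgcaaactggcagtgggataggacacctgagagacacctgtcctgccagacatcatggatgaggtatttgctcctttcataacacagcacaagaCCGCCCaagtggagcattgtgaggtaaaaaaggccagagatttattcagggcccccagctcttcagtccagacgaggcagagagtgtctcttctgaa
Serpina3n: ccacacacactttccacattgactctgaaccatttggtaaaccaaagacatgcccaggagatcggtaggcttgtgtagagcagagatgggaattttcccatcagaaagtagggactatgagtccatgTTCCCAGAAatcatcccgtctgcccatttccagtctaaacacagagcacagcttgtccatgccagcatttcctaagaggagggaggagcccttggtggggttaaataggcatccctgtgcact
Serpinf1: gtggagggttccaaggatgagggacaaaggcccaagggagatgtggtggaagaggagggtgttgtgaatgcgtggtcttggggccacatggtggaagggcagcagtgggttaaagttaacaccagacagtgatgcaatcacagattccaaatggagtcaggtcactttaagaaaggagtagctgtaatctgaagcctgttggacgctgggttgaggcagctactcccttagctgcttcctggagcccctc

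Serpina3n held the STAT motif TTCNNNGAA once, as TTCCCAGAA, starting 123 bases before the transcript. The same motif was found for 3 of the 29 genes with a window (10.3%, against 7.67% of all promoters), and the other two, Serpina11 and Cstb, had not passed. Serpina1 held 1 GC box and Serpinf1 held none of the 5 motifs. TATAAA was found for 2 of the 29 genes (Serpinb1a and Ctss; 12.9% of all promoters) and TGANTCA for Serpinb5 alone (6.34% of all promoters). All 3 windows were poor in CpG pairs, with ratios of 0.265, 0.132 and 0.125, and the median over the 16 serpins with a window was 0.231.

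Of the 8 clade B serpins 5 were tested, of which Serpinb6b had the higher level in articular and Serpinb6a in xiphoid cartilage, while 3 did not pass. Serpinb6a (Entrez gene 291085), an intracellular inhibitor whose human counterpart blocks cathepsin G, was at 131.4 and 147.5 CPM in articular cartilage, against 308.8 and 314.3 CPM in xiphoid cartilage. The tissues did not overlap, and the difference was 2.23-fold toward xiphoid cartilage, at a log2 fold change of -1.16 (SE 0.14, adjusted p = 3.47e-05). Serpinb6b (Entrez gene 364705), a relative with a similar sequence, was low, with 29 and 27 counts in articular and 4 and 5 counts in xiphoid cartilage. It went the opposite way, with 3.47 and 3.47 CPM against 0.470 and 0.685 CPM (log2 fold change 2.57, SE 0.55, adjusted p = 0.00201). Reads of these relatives can be split between them, so both values are uncertain. Serpinb6a also overlaps Nqo2 and Ripk1 in the annotation: Nqo2 averaged 8.84 against 19.8 CPM, with a log2 fold change of -1.17 (adjusted p = 0.0055), and Ripk1 averaged 32.4 against 22.2 CPM, with one of 0.55 (adjusted p = 0.0231).

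Serpinb1a, an inhibitor of neutrophil elastase and cathepsin G, was at 18.4 and 16.4 CPM in articular cartilage, against 14.6 and 14.4 CPM in xiphoid cartilage (log2 fold change 0.27, 95% interval -0.19 to 0.72, adjusted p = 0.312). Serpinb9, an inhibitor of granzyme B, was at 16.99 and 17.9 against 14.8 and 16.99 CPM (log2 fold change 0.13, 95% interval -0.32 to 0.59, adjusted p = 0.626). Neither gene passed, although the articular libraries of Serpinb1a were both the higher ones. Serpinb8, whose human counterpart inhibits furin, was at 3.83 and 5.91 CPM against 3.06 and 0.959 CPM (log2 fold change 1.23, SE 0.50, adjusted p = 0.0592). Its 2 xiphoid libraries differed widely. Serpinb8 passed without xiphoid replicate 1 (log2 fold change 2.33, adjusted p = 0.00229) and without articular replicate 1 (1.52, adjusted p = 0.0122), and had a log2 fold change of 0.67 without xiphoid replicate 2. Serpinb10, a serpin of blood-forming cells, had 14 and 5 counts in articular cartilage and none in xiphoid cartilage. Against a floor of 3 counts over both xiphoid libraries, its articular counts were 6.20-fold higher after scaling. That value takes the articular counts as exact and is not a lower bound. Serpinb10 was not tested across libraries. Serpinb11 had 4 counts, all in articular replicate 2, and Serpinb5, maspin of epithelial cells, had 1 count in xiphoid replicate 2.

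**Figure D3:**
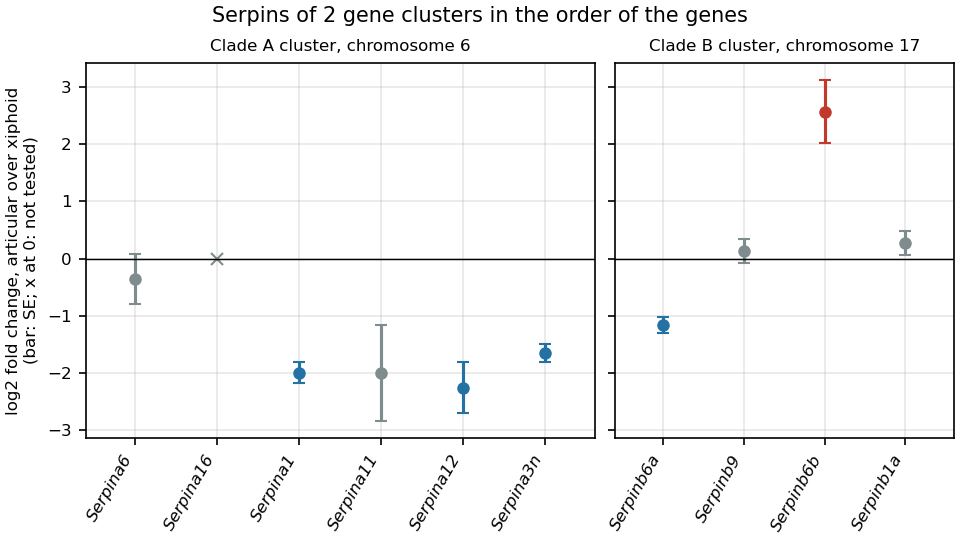
Log2 fold change, articular over xiphoid, with its SE for serpins of 2 clusters in the order of the genes along the chromosome, with a cross at 0 for the untested Serpina16. On chromosome 6, 3 of the 5 tested genes passed (blue), toward xiphoid cartilage, as did 24.5% of all tested genes. Serpina6 and Serpina11 (grey) did not pass. On chromosome 17 Serpinb6a (blue) and Serpinb6b (red) differ in opposite directions.

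Many of the serpins lie in clusters. On chromosome 6, Serpina6, Serpina16, Serpina1, Serpina11, Serpina12 and Serpina3n follow each other in this order among other clade A genes. Of the 5 that were tested, Serpina1, Serpina12 and Serpina3n were higher in xiphoid cartilage, and Serpina11 (log2 fold change -2.00) and Serpina6 (-0.35) did not pass. On chromosome 17, Serpinb6a, Serpinb9, Serpinb6b and Serpinb1a gave log2 fold changes of -1.16, 0.13, 2.57 and 0.27 in this order. Within the cluster on chromosome 17, Serpinb6a and Serpinb6b thus had called differences of opposite sign.

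**Figure D4:**
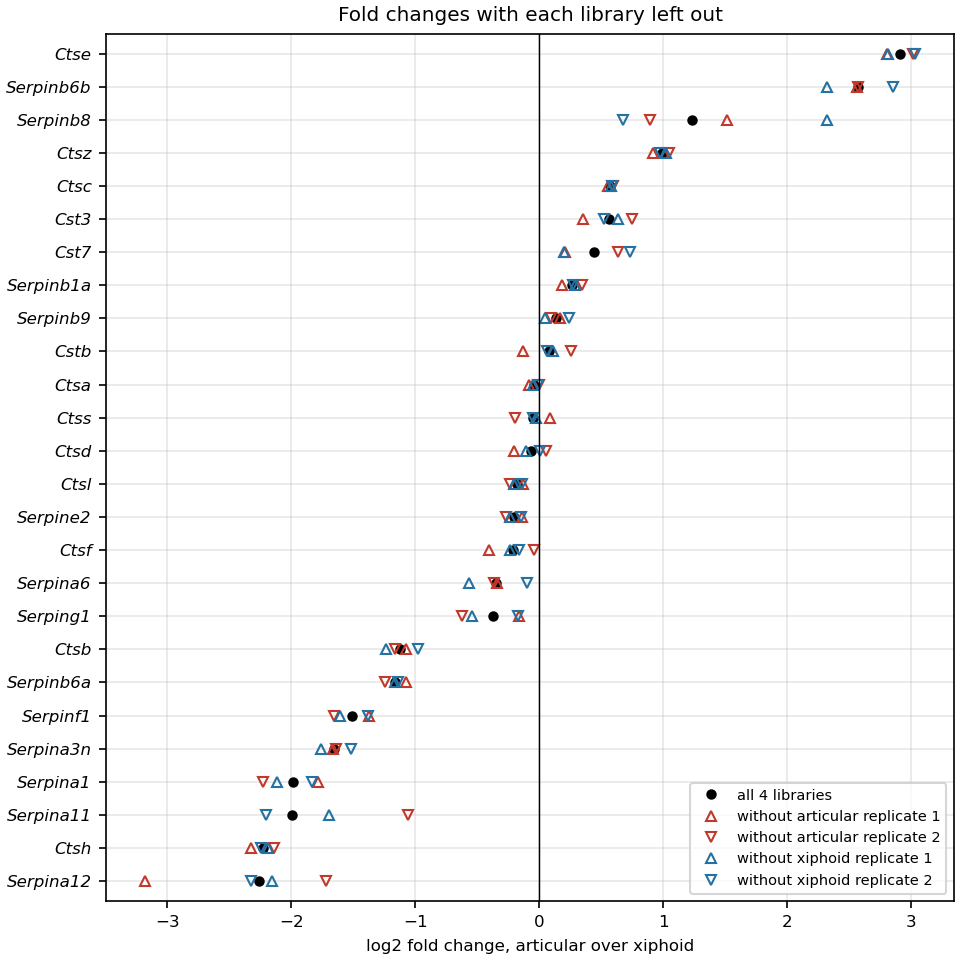
Log2 fold change, articular over xiphoid, of 26 tested genes with all 4 libraries (black) and with each library left out, articular libraries in red and xiphoid libraries in blue. The called genes drawn keep their sign in each case, and Serpina12 and the uncalled Serpinb8 spread the most, while the value of Serpina11 without articular replicate 1 is not drawn because the remaining articular library had no count.

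Genes that act with these families were taken from 4 lists. The lists were chosen with earlier results of these data known, so their counts describe the listed genes only. Those counts stand against 49.5% called over all tested genes, 25.0% higher in articular and 24.5% in xiphoid cartilage. The median log2 fold change of all tested genes was -0.02. Of 13 genes of cathepsin delivery and activation, 12 were found and tested, of which 2 had the higher level in articular and 4 in xiphoid cartilage, while 6 did not pass, with a median log2 fold change of 0.12. Sort1, the sortilin that sorts cathepsins D and H to lysosomes, was at 69.2 ± 8.09 CPM in articular cartilage, against 223.2 ± 19.1 CPM in xiphoid cartilage (SD, n = 2 each; edgeR adjusted p = 3.05e-06). Igf2r, the large mannose 6-phosphate receptor, was at 252.0 ± 9.59 against 110.1 ± 12.7 CPM (edgeR adjusted p = 3.84e-05, n = 2 each), and so Sort1 and Igf2r differed in opposite directions. Lamp1, a lysosomal membrane protein, was at 398.7 ± 9.78 against 653.9 ± 18.2 CPM (edgeR adjusted p = 0.0013, n = 2 each). Lgmn, the legumain that cleaves several cathepsin precursors, did not pass (log2 fold change 0.27, adjusted p = 0.149).

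Of 23 listed serine proteases, 18 were found and 11 tested, of which 2 had the higher level in articular and 8 in xiphoid cartilage, and Furin did not pass. The median log2 fold change was -0.79, also with Elane set against a floor of 3 xiphoid counts. Prss23, a secreted serine protease, was at 9.52 ± 0.923 against 267.2 ± 12.1 CPM (edgeR adjusted p = 1.10e-09, n = 2 each). C1r and C1s, the complement proteases that the product of Serping1 blocks, were at 33.2 ± 0.267 against 136.7 ± 7.76 CPM and at 10.9 ± 1.47 against 58.1 ± 9.93 CPM (SD, n = 2 each), both higher in xiphoid cartilage (edgeR adjusted p = 5.36e-07 and 1.38e-06). The plasminogen activators Plau and Plat were lower in articular cartilage, with log2 fold changes of -0.87 (adjusted p = 0.0153) and -0.79 (adjusted p = 0.00334). Elane, the neutrophil elastase that alpha-1-antitrypsin traps, had 89 counts over both articular libraries and none in xiphoid cartilage. Against a floor of 3 xiphoid counts it was 29.0-fold higher in articular cartilage (edgeR adjusted p = 3.13e-05), where Serpina1 was lower. For this fold the articular counts of Elane were taken as exact. Elane is also 1 of the neutrophil markers.

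Of 28 other genes listed as protease inhibitors or their relatives, 21 were found and 12 tested, of which 4 had the higher level in articular and 8 in xiphoid cartilage, with a median log2 fold change of -0.58. Slpi, the secretory leukocyte protease inhibitor, was at 39.3 ± 4.87 CPM in articular against 1.95 ± 0.237 CPM in xiphoid cartilage (edgeR adjusted p = 6.62e-08, n = 2 each). A2m, alpha-2-macroglobulin, was at 57.6 ± 6.05 against 254.8 ± 7.42 CPM (edgeR adjusted p = 3.17e-07, n = 2 each), and Spock2, a testican, at 2.38 ± 1.37 against 32.7 ± 3.27 CPM (edgeR adjusted p = 1.17e-06, n = 2 each). Of 14 genes listed around plasminogen binding and serpin clearance, 13 were found and 12 tested. The list also holds genes outside these roles, such as Thbd, Procr and Lrpap1. Of the 12, 2 had the higher level in articular and 4 in xiphoid cartilage, Thbd and Lrpap1 among the 4, while 6 did not pass. The median log2 fold change was -0.21. Vldlr, an endocytic receptor that takes up complexes of serpins with their proteases, was at 119.7 ± 15.8 against 20.1 ± 0.339 CPM (edgeR adjusted p = 1.57e-07, n = 2 each). S100a10, which helps plasminogen bind to cells, was at 211.2 ± 41.8 against 574.9 ± 52.6 CPM (edgeR adjusted p = 2.30e-05, n = 2 each). Vtn, the adhesive glycoprotein vitronectin, was at 0.363 ± 0.332 against 4.91 ± 0.545 CPM (edgeR adjusted p = 3.02e-04, n = 2 each). Plaur, the urokinase receptor, was higher in articular cartilage (log2 fold change 1.48, adjusted p = 0.00565), and Lrp1, the broad clearance receptor, did not pass (log2 fold change -0.28, adjusted p = 0.198).

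**Figure D5:**
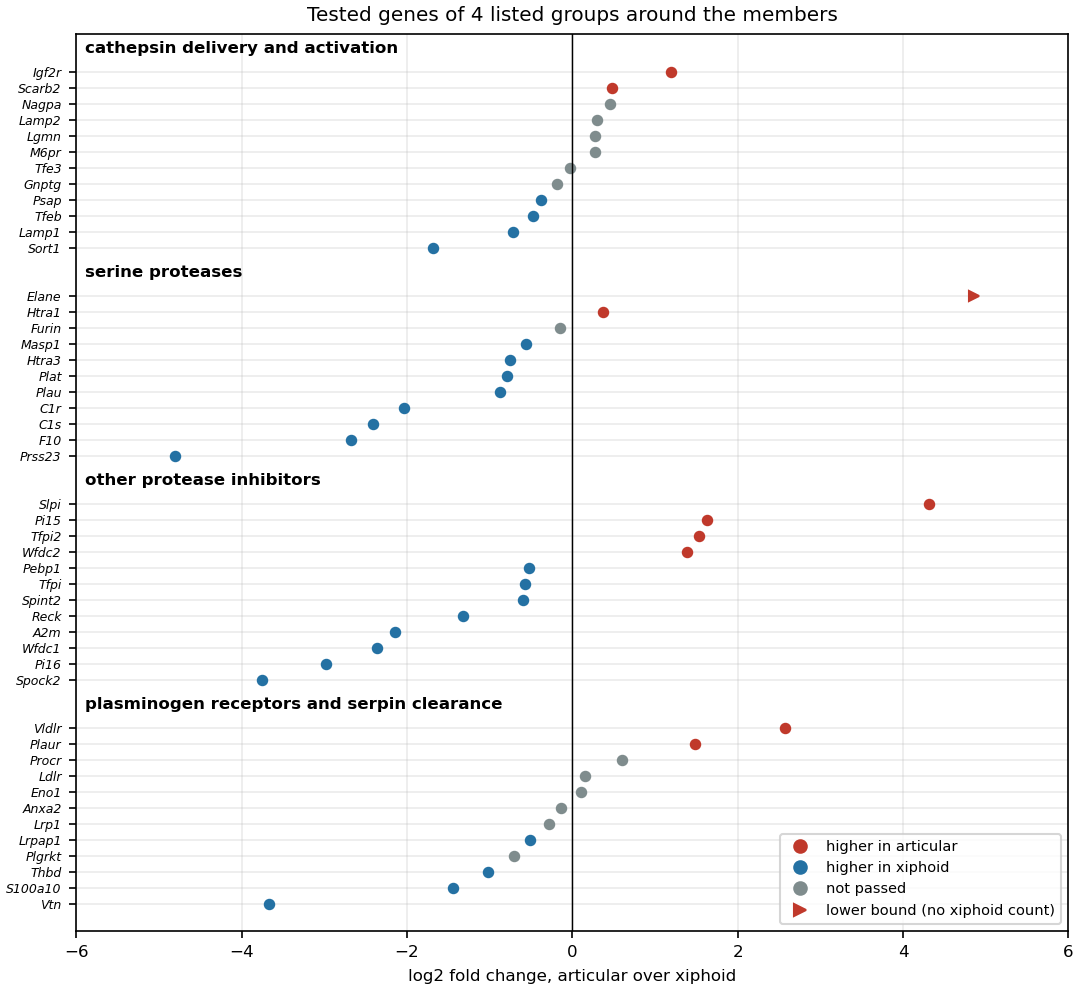
Log2 fold change, articular over xiphoid, of the tested genes of the 4 lists, with genes higher in articular cartilage in red, genes higher in xiphoid cartilage in blue and genes that did not pass in grey. The triangle, labelled as a lower bound, sets Elane against a floor of 3 xiphoid counts, with its articular counts taken as exact. The serine proteases lie mostly left of 0, toward xiphoid cartilage, with 8 of 11 called on that side (24.5% of all tested genes). The lists were chosen with earlier results of these data known, so such counts describe the listed genes only.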

How the data were processed

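RNA of rat articular and xiphoid cartilage was sequenced in 2 libraries each. The deposited table gave expected counts, estimated read numbers that need not be whole, per gene and library with no normalization, per the file headers. HISAT2 2.0.4, StringTie 1.2.1, Bowtie2 2.2.6, RSEM 1.2.12 and build rn6 are named in the submitters' processing notes, with no roles. Counts were rounded (3.91% of values were not whole, none of them in the genes described), filtered with filterByExpr by tissue (11202 of 13554 genes), scaled by TMM and tested with edgeR 4.0.16 in R 4.3.3 (glmQLFTest, robust glmQLFit, tissue as sole term, 2-sided p, Benjamini-Hochberg, threshold 0.05). The SE is the size of the log2 fold change over the square root of F, and 95% intervals use the t distribution with the fit's degrees of freedom. The value that edgeR names the coefficient of biological variation was 14.1%, although the spread between these libraries may be technical. With 2 residual degrees of freedom per gene, the fit borrowed spread from other genes (median prior degrees of freedom 10). The steps were also run on data simulated from the mean levels of these libraries, with few genes changed and the same spread for every gene. In the real data 49.5% of tested genes were called, so the simulation checks the code and not the error rate here.

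A count of 0 over a tissue allows up to 3 counts, 0.186 CPM in articular cartilage, against 0.190 CPM in xiphoid cartilage, and floors and counting intervals cover counting error only. A fold against a floor takes the counts of the other tissue as exact. The values of 1 of the 36 genes, which counts among them, are not reported here. Genes and lists were chosen with earlier results of these data known. Values in each library are given for tested genes with a mean of at least 10 CPM in a tissue, and for others where they differed or illustrate a family. From each of the 4 lists, the 3 genes with the lowest adjusted p are named, and Furin, Lgmn, Plau, Plat, Elane, Plaur and Lrp1 were added because of the genes described. All 36 identifiers matched RefSeq genes of GRCr8, used for names, order, overlaps and upstream sequence only, since its build differs from rn6. For 10 of the 36 the table lists a transcript assembled by the submitters beside the annotated ones. The 2 libraries of each tissue differed by more than sampling noise. Alternatives were other scalings and filters, DESeq2 1.42.0, limma-voom (limma 3.58.1), a replicate block, omission of the ribosomal RNA rows and of each library. With a library omitted, 1 tissue keeps 1 library, so the fit takes its spread from the other tissue and from other genes. Calls of those fits do not measure the spread within the reduced tissue.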

Additional observations from a re-analysis of the deposited data

How the results depend on the processing

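The 12 called genes kept their sign under the 13 alternatives wherever they were tested. All 12 calls held under RLE, upper-quartile and no scaling factors, no low-count filter, DESeq2, limma-voom, the replicate block and omission of the ribosomal RNA rows, and without articular replicate 2. Cst3 alone lost its call without each of the other libraries. The number of genes called lay between 12 and 14 without 1 library, against 12 with all. The number higher in articular cartilage, 5, was 8 with no low-count filter, which tests all 36 genes and adds Serpinb8, Serpinb10 and Ctsw, and 3 with a mean CPM of at least 5, which leaves 20 genes tested. With the replicate number as a block 17 of the 27 were called, the further ones being Serping1 (adjusted p = 0.00297), Serpinb8 (0.0122), Serpina11 (0.0197), Serpine2 (0.0351) and Ctsc (0.0483), and 6828 of all genes against 5544. The labels do not say that numbers pair libraries, and the deviations of same-numbered libraries correlated at 0.24 across genes. Signs turned only for genes near 0 that had not passed: Ctsa was at 0.0069 with upper-quartile factors, and without 1 library Ctsa ranged from -0.0778 to 0.00024, Ctsd from -0.199 to 0.0589, Ctss from -0.197 to 0.0911 and Cstb from -0.13 to 0.26. The cause was not tested. The 9 genes under the low-count filter were not tested in the main results. Without the filter, Serpinb10, Ctsw and Serpini1 among them were called.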

Other observations

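Tnni2, the troponin of fast muscle that overlaps Ctsd in the annotation, averaged 239.5 CPM in articular cartilage, against 243.1 CPM in xiphoid cartilage (log2 fold change -0.02, edgeR adjusted p = 0.925). The 7 listed skeletal muscle markers were all lower in articular cartilage at an adjusted p under 0.05, at 0.00338% and 0.00245% of counts in the articular libraries against 0.793% and 0.804% in the xiphoid libraries. What part of the reads counted for Tnni2 came from Ctsd, or the reverse, was not tested.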
